A study of Mus musculus with 6 samples.

Results

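Folliculin, its partners, the Rag GTPases and the MiT/TFE transcription factors were followed as 10 genes among the 17060 listed in any of 6 mouse RNA-Seq libraries. The genes were chosen by symbol with earlier results of the NUP-17d comparison known, so their differences between DMSO and NUP-17d are given as a description and carry no test of their own. Lineage-negative BM cells from WT mice (the methods name C57BL/6 for the drug screen) were cultured in medium with EPO, the hormone that drives erythroid maturation, and were exposed for 48 hours to DMSO (the vehicle, labeled NC, 3 cultures) or to NUP-17d (an inhibitor of pleckstrin-2, 3 cultures). No engineered allele was present in either group. The sources do not say whether each culture came from its own animal or a pool, so the errors and p-values given here measure only the spread between cultures, which may be technical.

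Folliculin (Flcn) works with folliculin-interacting protein 1 or 2 (Fnip1, Fnip2) at the lysosome surface, where it stimulates GTP hydrolysis by RagC and RagD. A Rag dimer joins RagA or RagB (Rraga, Rragb) to RagC or RagD (Rragc, Rragd), and in its active form it brings mTORC1 to the lysosome when amino acids are plentiful. The same dimer holds TFEB, TFE3 and MITF there for phosphorylation, which keeps them in the cytoplasm. Once released, these factors enter the nucleus, bind E-box and M-box elements and turn on lysosomal and autophagy genes, and they are known to act on folliculin and RagD genes as well. Maturing erythroblasts clear mitochondria and other organelles through lysosomes, and MITF is best known in blood cells for its role in mast cells.

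The E-box with the letters CACGTG is the core that these factors bind in CLEAR elements, so the promoters of the 10 genes were searched for it in RefSeq windows from 250 bases before to 50 bases after each start on GRCm38.p6, the build of the files' mm10. All 10 genes matched, with 15 windows in all. There were 5 matches, in Rragb, Rragc and Fnip1, and these are shown 5′ to 3′ on the plus strand with the E-box in capitals because they place a candidate element beside the start of members of 2 of the 3 groups.
Rragc, chr4:123917309-123917338: ggtgattccgggCACGTGatagtaccactt
Fnip1, chr11:54438092-54438121: tcagtttgctgcCACGTGatacggctcgtc
Rragb match 1, chrX:153139819-153139848: gagagcccgggcCACGTGatggcgggtggc
Rragb match 2, chrX:153139910-153139939: aaagggtagcggCACGTGacaggccctggg
Rragb match 3, chrX:153139943-153139972: acggcaggttccCACGTGatcctggcctgc
The first base of the match lay at -112 in Rragc, at -75 in Fnip1, and at -127, -36 and -3 in Rragb, counted from the RefSeq start, with the base before it as -1 and no position 0. Each match was followed by an A, which on the other strand extends it to the 7 letters TCACGTG, a longer form that always overlaps the shorter. CACGTG was held by 7.15% of all 32851 windows and by 11.8% of the genes tested here, beside 3 of the 10 members. The longer form was held by 3.77% of all windows and by 7.04% of the genes tested here, beside the same 3 members. The M-box core CATGTG, read on both strands, occurred in 0 of the 15 member windows and in 14.2% of all windows. The windows of Flcn, Fnip2, Rraga, Rragd, Tfeb, Tfe3 and Mitf held none of these letters, which says nothing of elements elsewhere in those genes.

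The expected counts, the authors' estimates of reads per gene, gave a total between 20278433 and 20419018 for the DMSO cultures and between 20076409 and 20170197 for the NUP-17d cultures. Hemoglobin genes took 18.3% to 20.3% of the counts with DMSO and 11.8% to 13.1% with NUP-17d. That share differed between the groups, and how much of the difference in composition it made was not tested. Counts were scaled with TMM, which corrects for library composition, and are given as CPM, the reads of a gene on a common library size. The labels call the samples erythroblasts, and 14 erythroid markers had a summed level of 220186.4 to 254229.5 CPM with DMSO and 121718.3 to 136121.3 CPM with NUP-17d. With TMM all 14 fell with NUP-17d (edgeR's quasi-likelihood test, adjusted p under 0.05), beside 18.9% of all tested genes called lower. With library totals 12 of the 14 were called lower, beside 657 of all 12306 tested genes. Klf1 and Gata1 were not called, at log2 fold changes of 0.028 and -0.067. In bulk RNA, fewer cells of a type and less RNA per cell cannot be told apart. Plek2, which encodes the target of the compound, had 51.1, 50.9 and 55.9 CPM with DMSO and 39.9, 38.5 and 41.2 CPM with NUP-17d. Its log2 fold change was -0.40 with TMM and -0.13 with library totals (edgeR adjusted p = 1.78e-07 and 0.0262).

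Folliculin had the largest fold change of the 10 genes. Flcn (Entrez gene 216805, chr11:59791408-59810016, minus strand) had 81.8, 83.1 and 81.9 CPM in the 3 DMSO cultures and 118.6, 116.4 and 121.0 CPM in the 3 NUP-17d cultures. The cultures of each group lay close together and the groups were far apart. The fitted level was 1.44 times that with DMSO, a log2 fold change of 0.53 with a standard error of 0.0371. Fnip1 (Entrez gene 216742, chr11:54438199-54518235, plus strand) had 44.1, 51.9 and 45.7 CPM with DMSO and 63.7, 65.5 and 58.2 CPM with NUP-17d. Its second DMSO culture was the highest of that group and still lay below each NUP-17d culture. The log2 fold change was 0.40 with a standard error of 0.0539. Fnip2 (Entrez gene 329679, chr3:79455974-79567796, minus strand) had 180.4, 186.4 and 177.4 CPM with DMSO and 219.8, 230.4 and 212.8 CPM with NUP-17d, again without overlap. Its log2 fold change of 0.28 (standard error 0.0370) was the smallest of the complex.

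The 4 Rag genes differed in their values. Rragc (Entrez gene 54170, chr4:123917446-123936997, plus strand), whose product is the main substrate of folliculin, had 71.5, 77.4 and 73.3 CPM with DMSO and 105.0, 105.3 and 98.5 CPM with NUP-17d. The groups were widely separated, with a log2 fold change of 0.47 and a standard error of 0.0415. Rragd (Entrez gene 52187, chr4:32983037-33022180, plus strand), the paralog of Rragc, had 16.7, 16.7 and 15.7 CPM with DMSO and 21.5, 21.5 and 19.3 CPM with NUP-17d. Each NUP-17d culture was above each DMSO culture, with a log2 fold change of 0.34 and a standard error of 0.0664. Rraga (Entrez gene 68441, chr4:86575668-86577285, plus strand), which supplies the other subunit of the dimer, had 44.5, 44.9 and 48.8 CPM with DMSO and 46.2, 45.5 and 44.6 CPM with NUP-17d. The groups overlapped throughout, and the log2 fold change was -0.021 with a standard error of 0.0466. Rragb (Entrez gene 245670, chrX:153139981-153171943, plus strand), the scarce paralog of Rraga that carries the 3 E-boxes shown above, had 3.81, 4.11 and 4.57 CPM with DMSO and 4.93, 5.60 and 4.95 CPM with NUP-17d. The groups did not overlap, but only 69.0 to 125 reads per culture lay behind these values, and the log2 fold change of 0.31 had a standard error of 0.132.

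The 3 factors differed in direction. Tfeb (Entrez gene 21425, chr17:47737030-47792419, plus strand) had 18.2, 16.7 and 16.8 CPM with DMSO and 19.3, 22.0 and 18.7 CPM with NUP-17d. The lowest NUP-17d culture was only just above the highest DMSO culture, and the log2 fold change was 0.22 with a standard error of 0.0701. Mitf (Entrez gene 17342, chr6:97807052-98021349, plus strand) had 8.84, 10.5 and 11.2 CPM with DMSO and 12.3, 13.9 and 11.3 CPM with NUP-17d. Its groups also nearly touched, with a log2 fold change of 0.29 and a standard error of 0.0929. Tfe3 (Entrez gene 209446, chrX:7762560-7775202, plus strand), the most abundant of the 3, had 109.1, 106.5 and 99.7 CPM with DMSO and 100.5, 95.7 and 97.7 CPM with NUP-17d. DMSO culture 3 lay within the NUP-17d range, and the log2 fold change was -0.10 with a standard error of 0.0400. Tfec, the remaining gene of the family and not one of the 10, had 19.8, 21.7 and 21.0 CPM with DMSO and 20.1, 22.5 and 22.3 CPM with NUP-17d. Its log2 fold change of 0.052 (standard error 0.0635) did not pass edgeR's test (adjusted p = 0.559).

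**Figure D1:**
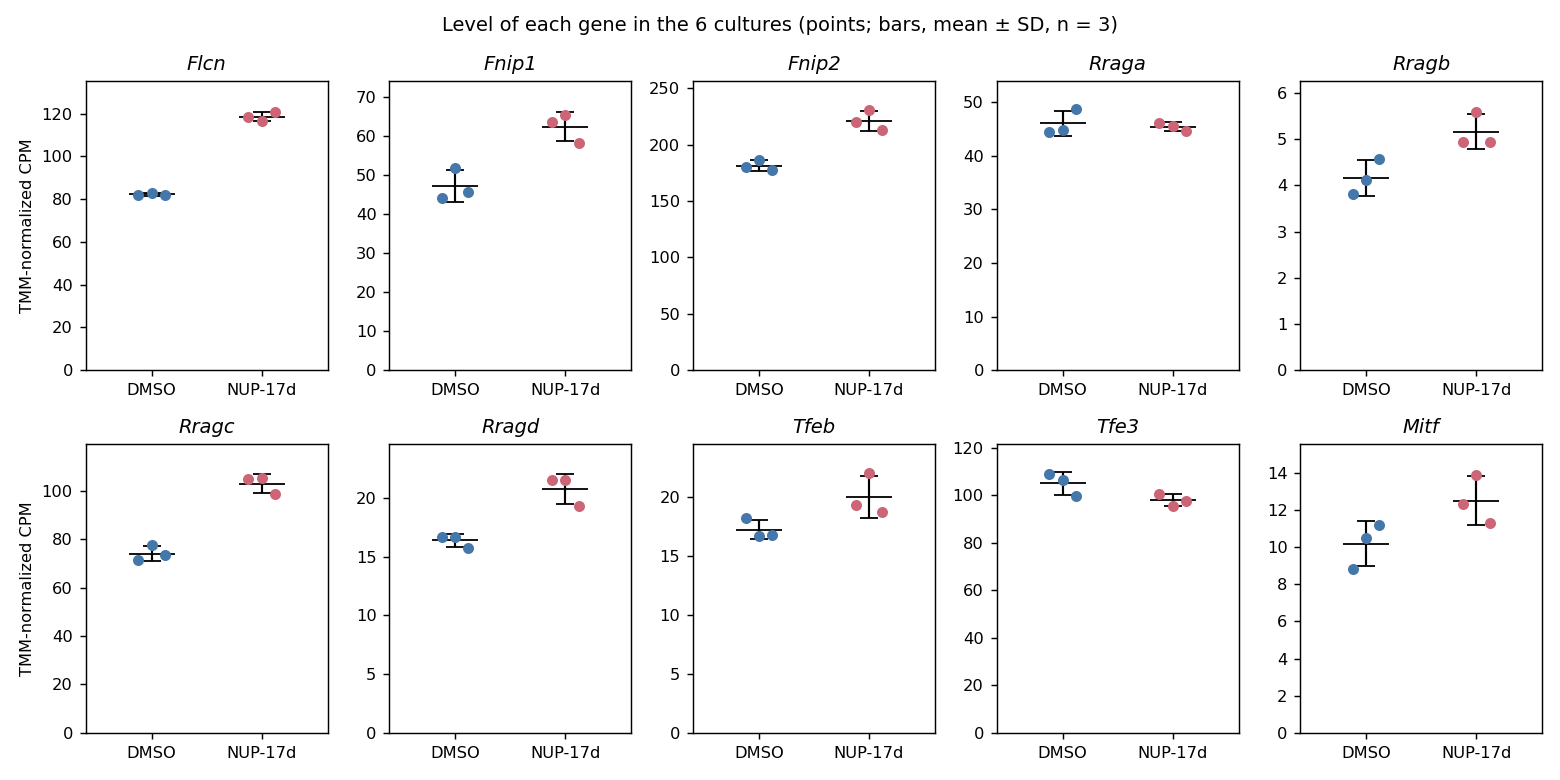
TMM-normalized CPM (y axes, each from 0) of the 10 genes in DMSO and NUP-17d cultures (x axes), with one point per culture and bars for the mean ± SD (n = 3 cultures). In 8 panels each NUP-17d point lies above each DMSO point, whereas the groups overlap for Rraga and Tfe3.

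In the fit over all 12306 tested genes, 8 of the 10 members had an adjusted p under 0.05 from edgeR's quasi-likelihood test, 7 of them higher and 1, Tfe3, lower with NUP-17d. Rraga and Rragb did not. Over all tested genes the called share was 35.3%, of which 16.4% of genes were higher and 18.9% were lower. Each NUP-17d culture was above each DMSO culture in 8 members and in 22.8% of tested genes, and the groups did not overlap in either direction in 46.0%. The contrast served to choose the members, so these counts are not evidence about them. The median log2 fold change of the 10 was 0.30, beside 0.014 over all tested genes. The calls of Tfe3, Tfeb and Mitf were lost with DESeq2, and those of Tfe3 and Mitf with limma on TMM-rescaled FPKM. Rragb gained a call with that limma setting. With library totals all 10 members, Rraga and Rragb among them, were called higher, as were 68.7% of all tested genes. Tfe3 lost its call also without the filter on low counts, without hemoglobin genes, and without DMSO culture 1 or 2 or NUP-17d culture 2 or 3, Tfeb lost it without DMSO culture 2 or 3 or NUP-17d culture 2, and Mitf lost it without DMSO culture 1 or NUP-17d culture 2. Leaving out each culture in turn gave a log2 fold change of -0.14 to -0.075 for Tfe3, 0.14 to 0.26 for Tfeb and 0.20 to 0.37 for Mitf.

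The choice of scaling bears on the direction of Rraga and Tfe3. With scaling by library totals alone, the median of all tested genes moved to 0.28, and 68.7% of them were called higher. The calls then split into 8458 higher and 657 lower, against 2019 and 2327 with TMM. On that scale Rraga had a log2 fold change of 0.25 and Tfe3 had 0.17, both under the median of all genes, while Flcn had 0.80 and Rragc had 0.74. The other members lay between 0.48 and 0.67, above that median. Under both scalings the same 8 genes lay above the median of all genes, and the sign changed for Rraga and Tfe3.

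**Figure D2:**
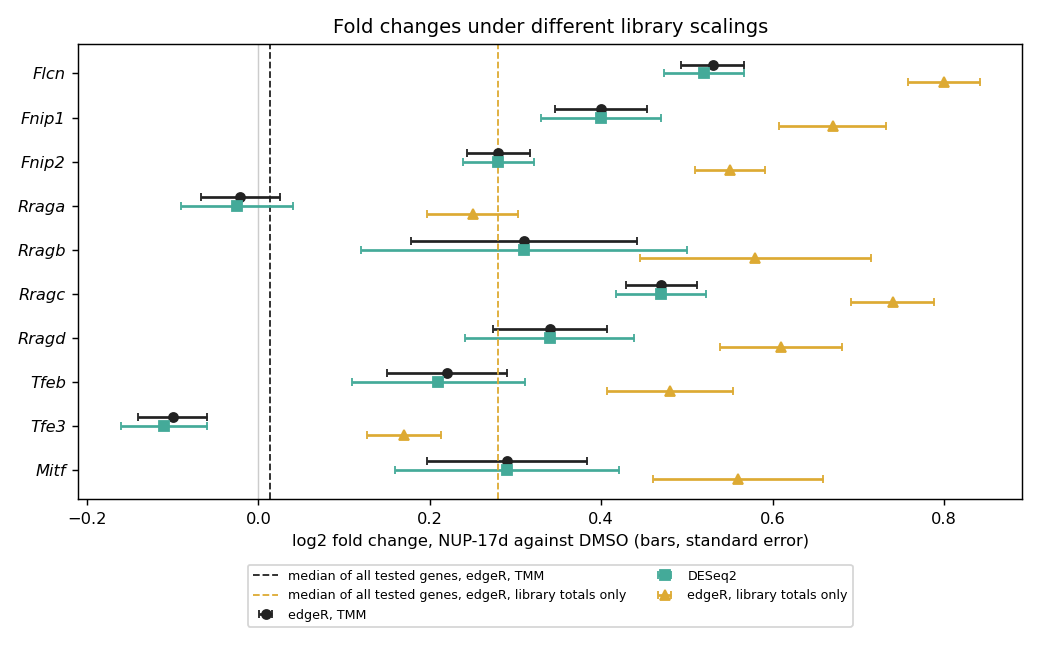
Log2 fold change of NUP-17d against DMSO (x axis) with its standard error for each of the 10 genes (y axis) under TMM, DESeq2 and library totals, with dashed lines at the all-gene medians of 0.014 for TMM and 0.28 for totals. With TMM and DESeq2 the values nearly coincide, and with totals only each gene shifts to the right while Rraga and Tfe3 stay left of the all-gene line.

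Levels of different genes were compared as FPKM, which corrects reads for transcript length and library size, here divided by the TMM factors. With DMSO, Tfe3 led with 33.9 ± 1.48 (SD, n = 3 cultures). Rragc and Rraga followed at 27.9 ± 1.16 and 27.8 ± 1.42, and their cultures overlapped. Fnip2 at 25.0 ± 0.630 and Flcn at 24.9 ± 0.402 came next and also overlapped. A gap separated these 5 from Fnip1 at 7.37 ± 0.641 and Tfeb at 7.23 ± 0.349, which overlapped each other. Rragd had 3.18 ± 0.105, and Mitf and Rragb closed the order at 2.04 ± 0.248 and 1.79 ± 0.164 with overlapping cultures. With NUP-17d the order at the top changed. Rragc led with 38.9 ± 1.47, Flcn was second with 36.0 ± 0.512, and Tfe3 came next with 31.7 ± 0.715, its cultures overlapping those of Fnip2 at 30.6 ± 1.23. Rraga stood at 27.5 ± 0.487, below these 4, and the order of the 5 scarce genes was as with DMSO.

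**Figure D3:**
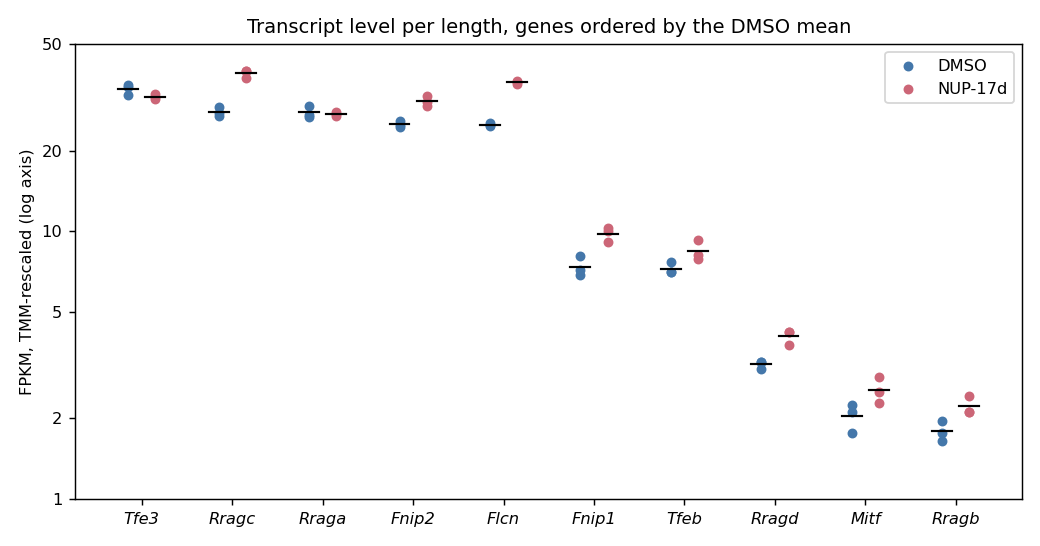
TMM-rescaled FPKM (y axis, log scale) of the 10 genes (x axis, ordered by the DMSO mean), with 3 cultures per group as points and the mean as a line. Tfe3 is highest with DMSO at 33.9, and Rragc and Flcn pass it with NUP-17d at 38.9 and 36.0.

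A ratio of 2 genes within one library does not depend on library scaling. The ratio of Rragc to Rraga, chosen after the values were seen, was 1.0, 1.08 and 0.940 in the DMSO cultures and 1.42, 1.45 and 1.38 in the NUP-17d cultures. The 3 DMSO values lay near parity and the 3 NUP-17d values above it. Rragb amounted to 0.0609, 0.0652 and 0.0666 of Rraga with DMSO and 0.0757, 0.0880 and 0.0785 with NUP-17d, so that RagA transcripts prevailed in all 6 cultures. Rragd amounted to 0.120, 0.111 and 0.111 of Rragc with DMSO and 0.105, 0.105 and 0.101 with NUP-17d. The groups did not overlap, with the lower ratios in the NUP-17d cultures. Fnip2 exceeded Fnip1 by 3.62, 3.18 and 3.44 times with DMSO and by 3.05, 3.11 and 3.24 times with NUP-17d, with overlap between the groups. Tfe3 exceeded Tfeb by 4.59, 4.89 and 4.57 times with DMSO and by 4.0, 3.36 and 4.0 times with NUP-17d. The groups did not overlap, and Tfe3 was the leading factor in each culture. Mitf amounted to 0.0505, 0.0613 and 0.0699 of Tfe3 with DMSO and 0.0770, 0.0915 and 0.0726 with NUP-17d. Against Tfeb, Mitf stood at 0.284 ± 0.0462 and 0.302 ± 0.0101 (SD, n = 3 cultures each), and the groups overlapped.

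Genes of the CLEAR network are the lysosomal and autophagy targets of TFEB and TFE3. Their list, like the other gene lists here, was written with earlier results of these data known. Its counts and p-values are therefore not independent evidence. Most of the listed genes were higher with NUP-17d. Of 41 such genes, all tested, 34 rose, 2 fell and 5 did not pass (edgeR's quasi-likelihood test, adjusted p under 0.05 over all tested genes). The median log2 fold change was 0.24. Over all tested genes 16.4% were called higher and 18.9% lower, with a median of 0.014. Mcoln1, which encodes the lysosomal calcium channel that activates calcineurin toward TFEB, had 36.3, 38.4 and 35.7 CPM with DMSO and 57.4, 57.2 and 53.6 CPM with NUP-17d. It rose by 0.61 on the log2 scale (standard error 0.0471, adjusted p = 5.73e-11 from edgeR). Cd63, a tetraspanin of late endosomes and lysosomes, rose from 97.7 ± 0.684 to 140.4 ± 8.16 CPM (SD, n = 3 cultures, adjusted p = 6.23e-11 from edgeR). Tpp1, a lysosomal peptidase, rose from 149.3 ± 4.62 to 206.8 ± 6.41 CPM (SD, n = 3 cultures, adjusted p = 7.01e-11 from edgeR).

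Members of each role within the list rose. Of 21 hydrolases 18 rose and 1 fell, all 7 membrane proteins rose, 5 of 6 V-ATPase genes rose, and of 7 autophagy genes 4 rose and 1 fell. The 2 that fell, named after their values were seen, were the cathepsin Ctsf, from 26.6 ± 0.727 to 18.8 ± 0.326 CPM, and Map1lc3b, the LC3 gene of the autophagosome membrane, from 260.1 ± 7.19 to 230.3 ± 5.96 CPM (SD, n = 3 cultures). With library totals only, Map1lc3b had a log2 fold change of 0.092 and Ctsf of -0.23. On that scale 40 of the 41 genes were called higher, beside 68.7% of all tested genes. Of the 41, 32 had a RefSeq promoter window, and 17 of these held CACGTG, beside 11.8% of the genes tested. CLEAR genes are known for this element, so that share describes the list and is not a result of the comparison.

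A pair of genes known to go up when folliculin is lost was also examined. Gpnmb, a lysosomal glycoprotein gene under TFE3, had 1409.9, 1578.0 and 1572.9 CPM with DMSO and 1857.1, 2203.3 and 1877.6 CPM with NUP-17d. The groups did not overlap, and it rose by 0.38 on the log2 scale (standard error 0.0515, adjusted p = 1.33e-06 from edgeR). Ppargc1a, a coactivator of mitochondrial genes, had under 1 CPM in each group, at 0.196 ± 0.217 and 0.152 ± 0.148 (SD, n = 3 cultures), and was not tested.

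Macrophages are rich in lysosomes and strong in Gpnmb, so their markers are given beside these genes. The 10 macrophage markers summed to 638.5 to 698.2 CPM with DMSO and 686.3 to 764.3 CPM with NUP-17d, with overlap. Of the 10, 2 rose and 3 fell with TMM, whereas 6 were called higher and 0 lower with library totals. Cd68, itself a lysosomal protein gene, rose from 200.9 ± 9.19 to 248.1 ± 18.1 CPM, and Adgre1 fell from 113.7 ± 6.19 to 102.5 ± 7.22 CPM (SD, n = 3 cultures). The groups overlapped for Adgre1, and its log2 fold change was 0.12 with library totals and did not pass. Mast cell and basophil markers summed to 423.0 to 435.8 CPM with DMSO and 410.1 to 419.0 CPM with NUP-17d, with 2 of 9 tested markers higher and 4 lower with TMM, and 4 higher and 0 lower with library totals. Of this list Mcpt4 was listed in no library, and Cma1 and Tpsb2, which define mature mast cells, stayed under 1 CPM in each group on average. Megakaryocyte markers summed to 475.8 to 525.7 CPM with DMSO and 550.4 to 569.9 CPM with NUP-17d, with 6 of 9 higher and 1 lower, or 8 and 1 with library totals. Neutrophil markers summed to 3938.3 to 4105.7 CPM and 4017.7 to 4297.9 CPM, with 2 of 9 higher and 1 lower, or 8 and 0 with library totals. All these counts stand beside 16.4% of all tested genes called higher and 18.9% lower with TMM. With library totals 68.7% of all tested genes were called higher. Apart from Mcpt4, each marker of these lists had reads in some library. What part these shifts, or the lower erythroid level, had in the differences above was not tested.

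Of 24 amino acid sensing genes upstream of the Rag GTPases, 1 rose, 5 fell and 18 did not pass edgeR's test with TMM scaling, with a median log2 fold change of 0.038. This share of 25.0% called stood beside 35.3% of all tested genes. With library totals the split turned to 18 higher and 2 lower, beside 68.7% of all tested genes called higher. The median was then 0.30, beside 0.28 over all tested genes. Sesn1, which encodes a stress-induced inhibitor of the pathway in the leucine-sensing Sestrin family, had 127.3, 124.4 and 125.3 CPM with DMSO and 91.6, 86.8 and 87.5 CPM with NUP-17d. It fell by 0.50 on the log2 scale (standard error 0.0372, adjusted p = 2.15e-11 from edgeR). Slc38a9, the lysosomal arginine sensor, fell from 96.8 ± 2.35 to 76.2 ± 1.01 CPM (SD, n = 3 cultures, adjusted p = 4.63e-08 from edgeR). With library totals their log2 fold changes were -0.24 and -0.078, and the call for Slc38a9 was lost (edgeR adjusted p = 0.0973).

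GATOR1 switches RagA and RagB off, and 1 of its 3 genes passed the test. Nprl3, whose introns carry the alpha-globin enhancers, had 48.0, 43.9 and 46.0 CPM with DMSO and 35.4, 33.8 and 35.6 CPM with NUP-17d and fell by 0.39 on the log2 scale (SE 0.0485, edgeR adjusted p = 2.86e-07). Depdc5, at 33.5 ± 0.941 and 34.2 ± 1.15 CPM, and Nprl2, at 8.42 ± 0.0746 and 9.65 ± 0.812 CPM (SD, n = 3 cultures), did not pass. Of the 5 Ragulator genes, which anchor the Rag dimer to the lysosome, 1 rose, Lamtor1, from 64.8 ± 0.768 to 75.6 ± 4.84 CPM. Of the 5 GATOR2 genes 1 fell, Sec13, which also serves in COPII coats, from 57.3 ± 2.33 to 50.2 ± 3.05 CPM, and Sesn2 fell as well, from 225.1 ± 11 to 190.1 ± 3.65 CPM (SD, n = 3 cultures). With library totals the log2 fold changes of Sec13 and Sesn2 were 0.077 and 0.024, and neither passed. None of the 4 KICSTOR genes passed. Lamtor1, Sec13 and Sesn2 were named after their values were seen.

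AMPK binds the folliculin complex, and 6 of its 7 subunit genes were tested. With library totals 4 of the 6 were called higher and 0 lower, beside 68.7% of all tested genes called higher. The called share with TMM was 16.7%, beside 35.3% of all tested genes. With TMM 1 fell, Prkag1, from 65.8 ± 1.43 to 57.0 ± 1.85 CPM (SD, n = 3 cultures, adjusted p = 0.000276 from edgeR), though its log2 fold change was 0.059 with library totals. Prkab1 and Prkab2 had log2 fold changes of -0.09 and -0.11 and did not pass (adjusted p = 0.0526 and 0.127 from edgeR). Of 15 genes that control where TFEB and TFE3 reside, 2 rose and 1 fell with TMM, so that 3 of 15 were called beside 35.3% of all tested genes. With library totals 14 were called higher and 0 lower, with a median of 0.31, beside 68.7% of all tested genes called higher. Besides Mcoln1, Ppp3ca, a catalytic subunit of calcineurin, rose from 72.8 ± 3.60 to 82.1 ± 4.13 CPM (SD, n = 3 cultures, adjusted p = 0.00317 from edgeR). Xpo1, the exportin that carries TFEB out of the nucleus, fell from 190.1 ± 1.82 to 167.3 ± 3.39 CPM (SD, n = 3 cultures, adjusted p = 0.000120 from edgeR), but had a log2 fold change of 0.083 with library totals. None of the 7 genes of 14-3-3 proteins, which hold the factors in the cytoplasm, passed.

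**Figure D4:**
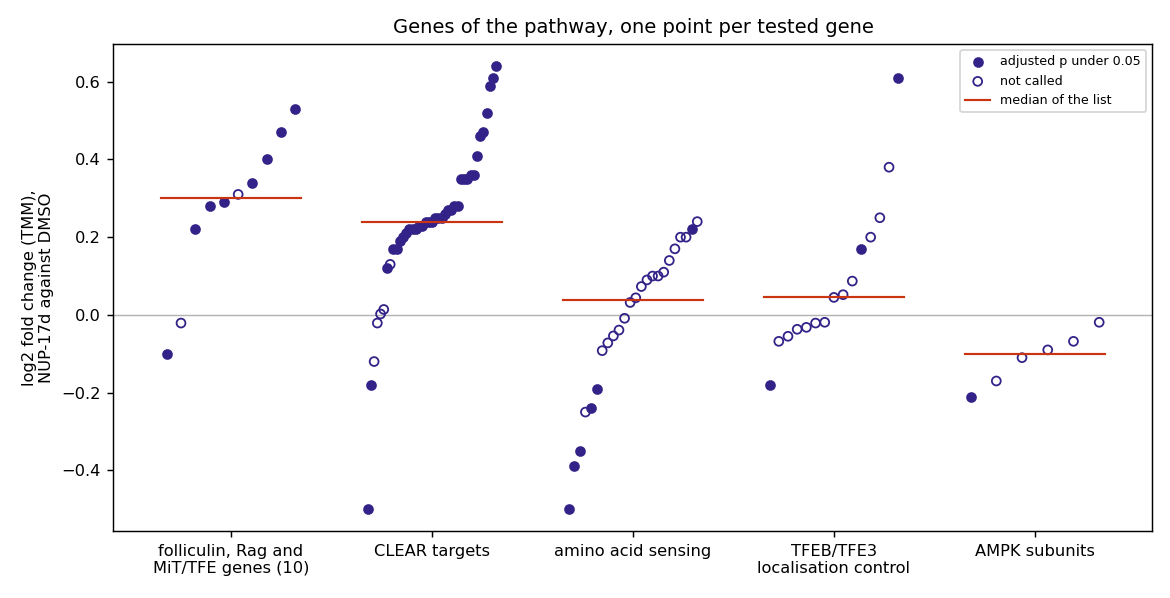
Log2 fold change with TMM (y axis) of each tested gene, sorted within its list (x axis), with filled points for an adjusted p under 0.05 and a line at the list's median. The CLEAR targets have a median of 0.24 and the 10 folliculin, Rag and MiT/TFE genes 0.30, while amino acid sensing genes have 0.038 and AMPK subunits -0.10.

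Among 8456 genes with a mean of at least 10 CPM, those with the pattern most like Flcn over the 6 cultures were Ppp2r5a, a regulatory subunit of protein phosphatase 2A, Msmo1, a cholesterol synthesis enzyme, and Fbxo6, a ubiquitin ligase subunit for glycoproteins. Likeness was the root mean square difference of log2(CPM + 1) after each gene's mean was removed, at 0.0132, 0.0233 and 0.0317, against 0.262 for the spread of Flcn itself. The genes nearest to Tfe3, the member with the lowest fold change, were Nipal3, Pms2 and Gtpbp4, at 0.00912, 0.0137 and 0.0142 against a spread of 0.0664. These are descriptions over 6 libraries in 2 groups, which any gene with a like difference between the groups would meet.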

How the data were processed

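The submitters' processing notes name mm10, and the aligner and counting program are not given in the sources used here. The labels describe oligo-dT selection, random priming and DNBseq, whereas the methods name a stranded Illumina kit. Strand use in counting is not given, and 264 exon bases of Rragc lie opposite 4930535I16Rik. The authors deposited, per culture, expected counts per gene (not normalized), FPKM values (scaled by length and library total) and a gene length. A gene not listed was taken as 0. Expected counts of 4 members, Flcn, Fnip2, Rragb and Rragd, were not whole, so reads were shared between loci in part.

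Counts were rounded, filtered with filterByExpr, scaled by TMM and tested with edgeR 4.0.16 (glmQLFit and glmQLFTest, R 4.3.3), p-values being adjusted by Benjamini-Hochberg and called under 0.05. The alternatives were DESeq2 1.42.0, library totals, limma 3.58.1 (log2 of FPKM with a pseudocount of 1 or of 0.1, and of TMM-rescaled FPKM), no filter, no hemoglobin genes, the culture number as a block, and each culture left out. Each tool was run on simulated data with 2-fold changes in 200 genes, of which edgeR recovered 200, DESeq2 199 and limma 200. False calls were 12, 3 and 13. The simulation held no shift in composition and no change as small as those of the members. It therefore cannot decide between the scalings. Positions are from GENCODE M21 on GRCm38.

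Members and lists were chosen with earlier results of these data known, and the lists were written from recall. Genes named besides the members were the 3 lowest p-values of each list, GATOR1, Tfec, Gpnmb, Ppargc1a, Plek2 and the genes most like Flcn and Tfe3. Others are said to be named after their values were seen, as were Klf1, Gata1, Cd68, Adgre1, Cma1 and Tpsb2. Libraries of one group differed by a chi-square of 1.84 to 4.54 for each degree of freedom, so none was a copy of another.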

Additional observations from a re-analysis of the deposited data

How the results depend on the processing

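The 10 members kept their direction under DESeq2, without the filter, without hemoglobin genes, with TMM-rescaled FPKM and with the block. Over the 14 alternatives 5 to 10 of them were called. All 10 were called only in the 3 settings without a correction for composition, where most tested genes were called too. The 5 were with DESeq2 and without NUP-17d culture 2. Leaving out each culture kept the direction too, except for Rraga (-0.044 to 0.022). Without a correction for composition, Tfe3 turned to 0.17 with library totals and with limma on log2(FPKM + 1) and log2(FPKM + 0.1). Under these 3 settings the genes called were 9115, 9059 and 9038 of 12306 tested, against 4346 with TMM. In each of the 3, the amino acid sensing list had 20 calls (18 higher) against 6, the localisation control list 14 (all higher) against 3, and the AMPK list 4 against 1. Tfec passed in all 3, at 0.32, 0.30 and 0.32. The median of all tested genes was 0.28, 0.22 and 0.27 under these settings, against 0.014 with TMM. A median near 0 follows from how TMM scales the libraries. The CLEAR list had 33 to 41 calls over all alternatives. DESeq2 called 2971 of 17014 genes. Leaving out each culture in turn gave 3713 to 4008 genes and 1 to 2 AMPK calls, the second appearing without DMSO culture 2 or 3. The deviations of same-numbered cultures from their group means had correlations of 0.0657, 0.00637 and 0.00461. Still, 4 of 6 cultures correlated best with their own number. With 3 cultures per group these values cannot decide whether the numbers pair the cultures. With the number as a replicate block 4543 genes were called, and 2 AMPK genes. E-boxes in only the 100 bases before the start were held by 2 members, Fnip1 and Rragb, and by 3.17% of windows, a share per window and not per gene. Depth limits Rragb and Mitf most, the members with the fewest reads.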

Other observations

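The deposited gene length was the same in all libraries for 6 of the 10 members and varied for Flcn, Tfeb, Tfe3 and Mitf. For Mitf it was 4890, 4890 and 4883 bases in the DMSO cultures and 4850, 4801 and 4855 bases in the NUP-17d cultures. All NUP-17d lengths were shorter (p = 0.10 in a two-sided exact permutation test, which with 3 cultures against 3 can give no smaller value). At 160 to 309 reads per culture, depth limits this value, and the tables give no values per transcript. For Flcn the lengths overlapped, from 3233 to 3282 bases (exact permutation p = 0.70), as they did for Tfe3, from 3043 to 3068 bases (exact permutation p = 0.60).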
